A study of Equus caballus with 4 samples.

Results

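The 5 genes *VIM*, *ACTB*, *TAGLN*, *MYH7* and *ACTN3*, which belong to the filament systems of the cell, were followed in sarcoids and skin of the same horses. They were chosen by name: every probe whose target is a RefSeq transcript of one of these 5 horse genes was read, which gave 10 of the 43603 probes on the array and 5 of the 949 genes that could be given a symbol other than a LOC number. *VIM* has 3 such probes, *MYH7* 3, *ACTN3* 2, and *ACTB* and *TAGLN* 1 each, and the *TAGLN* probe is printed on 5 spots of every array. Another 31502 probes carry an Ensembl transcript ID and were given no symbol. Whether some of those read these genes was not looked up. Probes of 1 gene measure the same RNA extract and were not counted as replicates.

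Vimentin, the product of *VIM*, forms the intermediate filaments of fibroblasts and other mesenchymal cells, whereas keratins take that place in the epidermis. *ACTB* encodes beta-actin, the cytoplasmic actin of nearly all cells, and is often used as a reference in RNA quantification. *TAGLN* encodes transgelin (SM22), an actin-binding protein that is abundant in smooth muscle and in contractile fibroblasts. *MYH7* encodes the slow and cardiac myosin heavy chain, the motor of the thick filament, and *ACTN3* encodes the alpha-actinin that anchors actin at the Z-disc of fast muscle fibres. In skin, smooth muscle lies in vessel walls, glands and the muscles of hairs, and striated muscle lies beneath the dermis.

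Sarcoids are locally invasive fibroblastic tumours of horse skin. Each of 4 horses contributed a sarcoid and a piece of skin taken away from the tumour, and both labelled RNAs were hybridised to 1 two-colour Agilent array per horse, the sarcoid always in Cy3 and the skin always in Cy5. Horse and tissue are the only sample traits the labels give, and no agent was given to the animals per the labels. Every difference below is a log2 ratio of sarcoid over skin within 1 horse, so 1 unit is a doubling.

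The dyes were swapped on 0 arrays, so a dye effect on a probe cannot be told apart from a difference between the tissues. The free-text descriptions of 3 of the samples name embryonic stem cells, against their tissue, dye and horse fields, which were used. By the scanner software's call, 67.2% of spots were well above background in the sarcoid of horse 4, the lowest share of any channel. The highest was 80.7%, in the skin of horse 3, and 0 spots were saturated. The median signal without control spots was also lowest in the sarcoid of horse 4, at 113.5, against 153 to 187 in the other sarcoids. The tissue labels were set against markers: all 3 measured fibroblast markers (*LUM*, *DCN* and *COL5A2*) were higher in the sarcoids, at log2 ratios from 1.84 to 4.24, and both measured keratinocyte markers (*KRT15* and *S100A7*) were lower, at -5.12 and -5.13. These are bulk tissues, in which fewer cells of a type and less RNA per cell cannot be told apart.

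*VIM* was the 1 gene of the 5 that passed the test. In limma's moderated test over 19607 targets with Benjamini-Hochberg adjustment, 15.7% of all targets passed at an adjusted p under 0.05, 5.84% as higher and 9.9% as lower in the sarcoids. Among the 791 targets with a gene symbol 19.6% passed. A count of 1 in 5 is near those shares and is no result about the set. The other 4 genes had mean log2 ratios between -0.53 and 0.08, while the median over all targets was 0.0035.

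*VIM* RNA was about 3-fold higher in the sarcoid than in the skin. On the brightest of its probes, A_69_P012316, the normalised log2 intensity in the sarcoids of horses 1 to 4 was 17.30, 17.08, 17.35 and 17.11. In the skins of the same horses it was 15.01, 15.69, 16.00 and 15.79. The lowest sarcoid lay above the highest skin, as it did for 8.08% of the targets with a level in every channel. The median signals before normalization overlapped, at 92504 to 118866 in the sarcoids and 36659 to 103119 in the skins. The spread between animals was mostly in the skin, with an SD of 0.43 log2 units against 0.13 in the sarcoids.

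**Figure D1:**
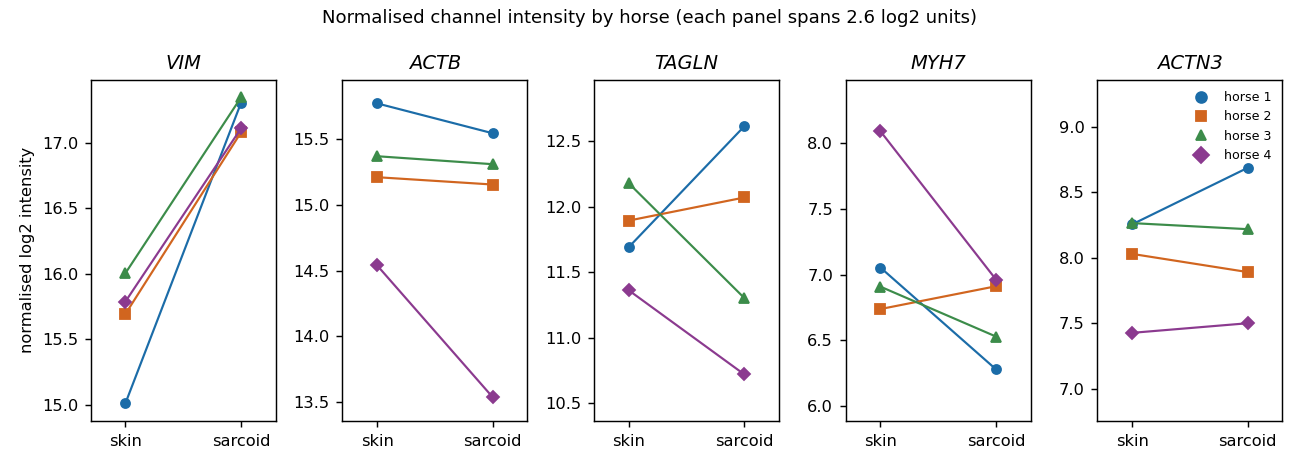
Normalised log2 intensity of the 5 genes, each on its brightest probe, in skin and sarcoid; each line joins the 2 tissues of 1 horse and every panel spans the same range, with no order of levels meant between panels. VIM rises in all 4 horses and ends between 17.08 and 17.35 in the sarcoids, ACTB falls mainly in horse 4, and TAGLN rises in horses 1 and 2 and falls in horses 3 and 4.

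The within-horse log2 ratios of *VIM* were 2.29, 1.38, 1.34 and 1.32, which are 4.89-, 2.61-, 2.53- and 2.50-fold differences. Horse 1, which had the lowest *VIM* intensity in its skin, had the highest ratio, and the other three lay close together. The mean was 1.58 ± 0.47 (SD, n = 4), or 3.00-fold with a 95% confidence interval from 2.10 to 4.28 (limma adjusted p = 0.00792). It ranked 24 from the top among the 791 targets with a gene symbol, and 98.5% of all targets had a lower mean ratio. Without horse 1 the ratio was 1.35 (limma adjusted p = 0.0136).

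The 3 *VIM* probes gave the same direction in every horse. A_69_P012317 read 2.08, 1.24, 1.13 and 1.04 in horses 1 to 4, a mean of 1.37 ± 0.48 (SD, n = 4). A_69_P012318 read 1.96, 1.25, 1.02 and 0.93, a mean of 1.29 ± 0.47. Within a horse the probes differed by 0.15 to 0.40 log2 units, which is less than the gap between horse 1 and the others. In a limma fit over 33864 single probes, 18.2% passed, 6.97% as higher and 11.2% as lower. The *VIM* probes were the 3 of the 9 tested member probes that passed, with limma adjusted p-values of 0.00683, 0.0110 and 0.0126, and they are all from 1 gene. The brightest probe gave the highest ratio in all 4 horses, and on 3 arrays its local background was marked as differing from that of other spots, a mark that did not lead to exclusion.

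**Figure D2:**
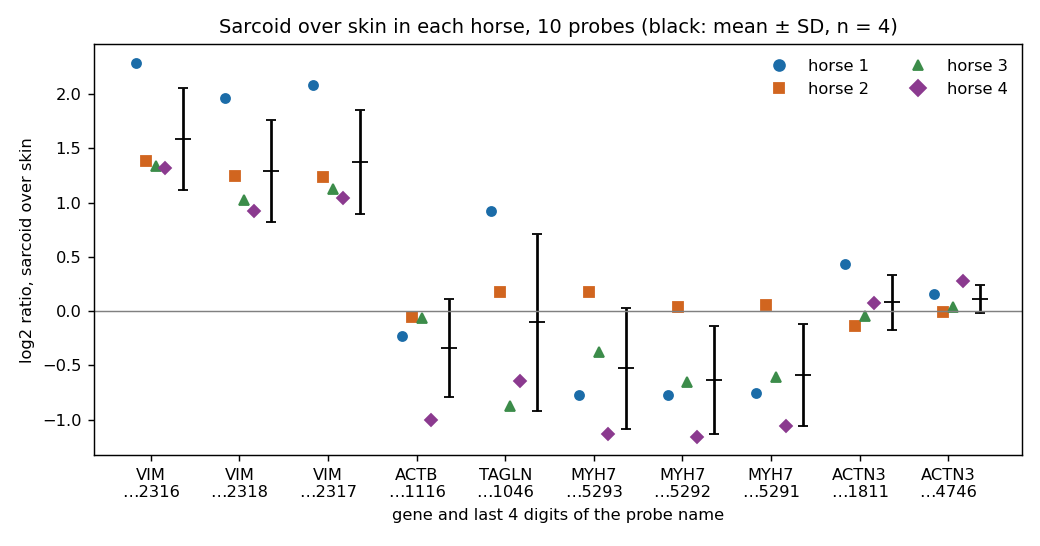
Log2 ratio of sarcoid over skin for the 10 probes of the 5 genes; coloured points are horses and the black bar is the mean with its SD (n = 4). The VIM probes lie above 0 in every horse, the MYH7 probes lie lowest in horse 4, and TAGLN spans from -0.88 to 0.92.

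The size of the *VIM* ratio depended on the dye correction. Only 0.756% of the tested probes were brighter than A_69_P012316. At that brightness the loess curve, which removes the part of the ratio that varies with intensity, added 0.59, 1.26, 1.42 and 1.34 log2 units on the 4 arrays. Before it the ratios were 1.70, 0.13, -0.07 and -0.02. With each array centred on its median in place of loess, the mean was 0.76 (limma adjusted p = 0.104), and with the background model fitted on all spots, outliers included, it was 1.54 (limma adjusted p = 0.0636). In that last setting 240 targets passed in place of 3087, so with this background model the call of *VIM* rests on leaving outlier spots out first. The authors' deposited ratios, from which no outlier spots were left out here, gave a mean of 1.63 (limma adjusted p = 0.00761).

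*ACTB*, which the curve shifted by a like amount (0.51 to 1.21), had no difference past the threshold. Its log2 intensity was 15.55, 15.16, 15.31 and 13.54 in the sarcoids and 15.78, 15.21, 15.37 and 14.54 in the skins of horses 1 to 4. The within-horse ratios were -0.23, -0.06, -0.06 and -1.01, so 3 horses lay close to 0 and horse 4 read 2.01-fold lower in the sarcoid. Both tissues of horse 4 gave the lowest *ACTB* value of their kind. The sarcoid channel of horse 4 was also the dimmest channel by its median signal, and the part of this in the *ACTB* ratio was not tested. The mean was -0.34 ± 0.45 (SD, n = 4), with a 95% confidence interval from -0.83 to 0.16 (limma adjusted p = 0.313). It was -0.11 without horse 4. With median centring in place of loess it was -1.01 (limma adjusted p = 0.0176), which is a call of a lower level in the sarcoids.

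*ACTB* can be set beside 5 other genes used as references in RNA quantification that were measured. None of these 6 genes passed, and their mean ratios ran from -0.35 to 0.33 with a median of -0.17. *GAPDH*, a glycolytic enzyme, was at 0.27 ± 0.48, the ribosomal protein gene *RPLP0* at -0.03 ± 0.48 and the translation factor gene *EEF1A1* at -0.30 ± 0.14 (SD, n = 4). *B2M*, the light chain of MHC class I, was at -0.35 ± 0.73, and the ubiquitin gene *UBB* at 0.33 ± 0.86. *ACTB* was thus within their range. *VIM* stood 1.75 log2 units above their median. With the mean over each gene's probes in place of the brightest probe, the 6 ran from -0.35 to 0.12 and *VIM* stood 1.42 above their median. With median centring all 6 were below 0, from -1.25 to -0.41, *ACTB*, *RPLP0* and *EEF1A1* were called lower, and *VIM* was 1.70 above their median.

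Taken against *ACTB* on the same array, *VIM* was higher in all 4 horses, by 2.52, 1.44, 1.40 and 2.33 log2 units. The mean difference between the 2 ratios was 1.92 ± 0.58 (SD, n = 4), and it stayed between 1.72 and 2.10 under the 13 alternatives that gave it, each horse left out included. The exact two-sided sign-flip permutation test gave p = 0.13, the smallest value 4 horses allow, and 0.312 after Benjamini-Hochberg adjustment over the 10 pairs of genes. *VIM* also exceeded *TAGLN*, *MYH7* and *ACTN3* in every horse, by means of 1.69, 2.11 and 1.50, each with the same exact p. Under the same alternatives these means ran from 1.21 to 1.85, from 1.38 to 2.72 and from 0.82 to 1.59, with the lowest of each on median centring. The 6 pairs without *VIM* had mean differences between -0.61 and 0.42, the same sign in at most 3 horses, and exact permutation p-values from 0.250 to 0.625. Such a difference shows unequal change, not which gene changed.

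*TAGLN*, the smooth muscle gene, differed between horses in direction. Its log2 intensity was 12.61, 12.07, 11.30 and 10.72 in the sarcoids of horses 1 to 4 and 11.69, 11.89, 12.18 and 11.36 in their skins. The tissues overlapped, and the sarcoids were the more variable, with an SD of 0.83 against 0.34. The ratio was 0.92 in horse 1 and 0.18 in horse 2, and -0.88 in horse 3 and -0.64 in horse 4. Expressed as folds, the sarcoid of horse 1 was 1.89-fold higher than its skin, and that of horse 3 was 1.83-fold lower.

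The mean of *TAGLN* was -0.10 ± 0.82 (SD, n = 4), with a 95% confidence interval from -0.92 to 0.71 (limma adjusted p = 0.861). A difference of up to 1.89-fold towards the skin or 1.63-fold towards the sarcoid lies inside that interval. Only 9.23% of the tested targets had a larger SD between horses. Without horse 3 the mean was 0.15 and without horse 4 it was 0.07, both with the sign turned.

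The *TAGLN* probe was read on 5 spots of each array, which give the spot error within an array. In horse 1 they ran from 0.90 to 0.95, in horse 2 from 0.13 to 0.23, in horse 3 from -0.91 to -0.85 and in horse 4 from -0.68 to -0.59. The SD over the spots of an array was 0.022 to 0.039. The single spots varied in brightness more than in ratio: in horse 1 the sarcoid signal ranged from 4486 to 6635 and the skin signal from 2388 to 3498. The spots of an array share its extraction, labelling, hybridisation, scan and loess curve, so differences of these between arrays are not in that SD. The loess shift of *TAGLN* was 0.015, 0.94, 0.56 and 1.17 on the arrays of horses 1 to 4, and its part in the spread between horses was not tested.

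**Figure D3:**
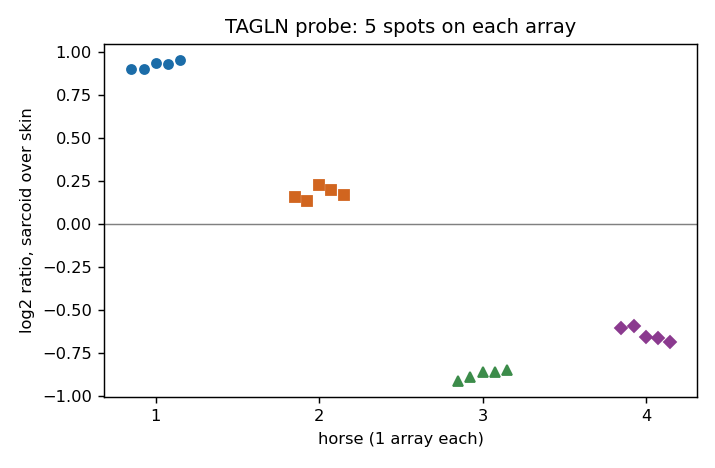
Log2 ratio of sarcoid over skin at each of the 5 TAGLN spots on the arrays of horses 1 to 4. The spots of an array lie within 0.094 of each other, and horses 1 and 2 are above 0 while horses 3 and 4 are below.

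Markers of vessels were uneven over the same horses. *PECAM1*, an adhesion molecule of endothelium, read 0.42, 2.29, -1.84 and 0.77 in horses 1 to 4, and *VWF*, the endothelial clotting protein, 0.03, 1.59, -1.95 and 0.10. Both were lowest in horse 3, as was *TAGLN*, but highest in horse 2 rather than horse 1. Of the 7 endothelial markers listed, 4 were measured, at mean ratios from -0.23 to 2.61, and only the leukocyte adhesion molecule *VCAM1* passed, as higher. Of the 10 markers listed for vascular smooth muscle and pericytes, such as *ACTA2*, *MYH11* and *RGS5*, 0 could be read by name, so the source of the *TAGLN* signal was not tested.

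*MYH7* was dim. The median signal of the *MYH7* spots was 77 to 117 in the sarcoids, where the negative control spots had medians of 65 to 71 and 95th percentiles up to 77.4. In the skins it was 105 to 134 in horses 1 to 3 and 352 to 361 in horse 4, against control medians of 53 to 60. A_69_P005293 was well above background in both channels of all 4 arrays. A_69_P005292 was so in the sarcoid of horse 2 only, and A_69_P005291 in the sarcoids of horses 2 and 4, while all 3 were above it in every skin.

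*MYH7* read lower in the sarcoid of 3 of 4 horses. On A_69_P005293 the normalised log2 intensity in the sarcoids of horses 1 to 4 was 6.28, 6.91, 6.53 and 6.96. In the skins it was 7.05, 6.74, 6.91 and 8.09. The median signals of those sarcoids before normalization were 89, 117, 104 and 84. Horse 4 was thus the dimmest sarcoid before normalization and the highest after it, so the order of the sarcoids depends on the processing. Before loess the ratios were -0.68, -0.25, -0.66 and -2.21, and the curve shifted them by -0.09, 0.42, 0.28 and 1.08. After it they were -0.78, 0.17, -0.38 and -1.13, with horse 4 lowest and horse 2 just above 0. The mean was -0.53 ± 0.56 (SD, n = 4), with a 95% confidence interval from -1.11 to 0.06 (limma adjusted p = 0.195).

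The other *MYH7* probes read -0.77, 0.04, -0.66 and -1.16 (A_69_P005292) and -0.75, 0.06, -0.61 and -1.06 (A_69_P005291). Since most of their sarcoid signals were not well above background and they were kept through the skin, these are descriptions that lend the first probe no support. Within a horse the 3 probes differed by 0.02 to 0.28 log2 units. Their limma adjusted p-values over single probes were 0.184, 0.101 and 0.110, so none passed. With Agilent's processed signals, from which background has been subtracted without an offset, the mean of A_69_P005293 was -1.09 and its SD 1.37 (limma adjusted p = 0.197). Myosin heavy chains, actins and alpha-actinins are families of similar genes, so signal from a relative on the *MYH7*, *ACTB* and *ACTN3* probes was not tested.

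Levels of the other striated muscle genes in the skin of horse 4, where *MYH7* was highest, went both ways. *MB*, the oxygen-binding myoglobin, had log2 intensities of 7.52, 7.99, 7.31 and 7.23 in the skins of horses 1 to 4, with horse 4 the lowest. *PYGM*, the glycogen phosphorylase of muscle, was at 6.23, 6.31, 6.21 and 6.21, and was well above background in only 3 skins and 1 sarcoid. *ACTN3* and *MSTN* were also lowest in that skin. *TPM3* was highest there, at 6.60, 6.30, 6.22 and 6.63, while *TNNI3* (7.20, 7.69, 8.13 and 7.65) and *ATP2A2* (11.79, 11.63, 11.56 and 11.58) were neither highest nor lowest. Of the 12 skeletal muscle markers listed, *MB* and *PYGM* were the 2 measured, and the part of muscle in the *MYH7* values was not tested.

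*ACTN3* showed no difference past the threshold. On A_69_P001811 its log2 intensity was 8.69, 7.89, 8.22 and 7.50 in the sarcoids and 8.25, 8.03, 8.26 and 7.43 in the skins of horses 1 to 4. Before loess the ratios were 0.59, -0.77, -0.38 and -0.98, and the curve shifted them by -0.16, 0.64, 0.33 and 1.06. After it they were 0.43, -0.14, -0.05 and 0.07, with horse 1 highest and the others near 0. The mean was 0.08 ± 0.25 (SD, n = 4), with a 95% confidence interval from -0.27 to 0.43 (limma adjusted p = 0.747). A level more than 1.35-fold higher or 1.21-fold lower in the sarcoids lies outside that interval, for this processing only. With Agilent's processed signals the mean was 0.29 ± 0.23 (SD, n = 4), and horse 1 read 0.56 (limma adjusted p = 0.389). The second probe, A_69_P004746, was well above background in 1 sarcoid and 0 skins and was left out of the fit by the filter on dim probes. Its log2 ratios were 0.16, -0.01, 0.04 and 0.27, and they carry no level. On median centring the mean was -0.05 and without horse 1 it was -0.04, both with the sign turned.

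The 10 lists of cytoskeleton, muscle and reference genes held 226 symbols, of which 22 could be measured by name. Leaving the 5 genes aside, 17 were measured: 2 were higher, 5 were lower and 10 did not pass, with a median log2 ratio of -0.10. Among all 791 targets with a symbol 7.59% were higher and 12% were lower, with a median of -0.069. The lists of intermediate filaments, actins and smooth muscle genes held no measured gene beside *VIM*, *ACTB* and *TAGLN*. Those of mesenchymal transition regulators and of tubulins held none. In the list of serum response and mechanical signalling genes only *TGFB1*, a growth factor that drives contractile fibroblasts, was measured, at 0.54 ± 0.62 (SD, n = 4; limma adjusted p = 0.218). Its ratios were 0.84, 0.77, 0.92 and -0.38, and it passed only when horse 4 was dropped, at 0.84 (limma adjusted p = 0.0272). Dropping horse 1, 2 or 3 gave means of 0.44, 0.46 and 0.41, and the smallest limma adjusted p among these fits was 0.441. With the background model on all spots *TGFB1* was at 0.19 (limma adjusted p = 0.634).

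Among genes of actin dynamics and non-muscle myosin, 5 were measured, and on their brightest probes 2 rose and 2 fell. The thymosins *TMSB10* and *TMSB4X*, which bind actin monomers, rose by 1.72 ± 0.76 and 1.61 ± 0.87 (SD, n = 4; limma adjusted p = 0.0201 and 0.0335). In horses 1 to 4 *TMSB4X* read 2.89, 1.38, 1.03 and 1.14, with horse 1 the highest as for *VIM*, and *TMSB10* read 2.27, 0.81, 2.42 and 1.37. Gelsolin, *GSN*, which severs actin filaments, fell by 1.23 ± 0.51 on the log2 scale and was below 0 in all 4 horses (limma adjusted p = 0.0202). *ROCK1*, the kinase that raises myosin activity downstream of RhoA, read -1.88 ± 0.40 on its brightest probe (limma adjusted p = 0.00323). But its 5 probes ranged from -1.88 to 0.27, and the mean over them was -0.20 and did not pass (limma adjusted p = 0.275). The tropomyosin gene *TPM3* was at -0.10 ± 0.27.

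The calls of both thymosins and *GSN* changed with the horses left out. On its brightest probe alone, *ROCK1* kept its call without each horse (limma adjusted p from 0.00796 to 0.0196). The limma adjusted p of *TMSB10* was 0.0824, 0.0628 and 0.0570 without horses 1, 3 and 4, that of *TMSB4X* 0.0897, 0.0659 and 0.0744 without horses 2, 3 and 4, and that of *GSN* 0.0661, 0.0768 and 0.0697 without horses 1, 2 and 3. On median centring the thymosins were at 0.80 and 0.96 and did not pass. With the background model on all spots none of these 4 genes passed.

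In the list of striated muscle genes 8 were measured, *MYH7* and *ACTN3* included, and 2 of them fell. *MB*, which was kept through the skin, was not well above background in any sarcoid and lay at least 2.30-fold lower there than in the skin (limma adjusted p = 0.0196). That bound sets its mean level in the skin against the lowest signal that counted as above background on each array, or its own where that was higher. The bound holds for this processing only: the measured mean log2 ratio of *MB* was -1.21, against -0.56 with the background model on all spots (limma adjusted p = 0.320) and -3.31 with processed signals. The call of *MB* was lost without horses 1, 2 and 3 (limma adjusted p = 0.0855, 0.0606 and 0.0659). *ATP2A2*, the calcium pump of slow muscle, heart and many other cells, fell by 0.65 ± 0.28 on the log2 scale (limma adjusted p = 0.0404). That call was lost with each horse left out in turn (limma adjusted p from 0.0673 to 0.140). The cardiac troponin gene *TNNI3* was at -0.32 ± 0.18, the growth inhibitor *MSTN* (myostatin) at -0.07 ± 0.22 and *PYGM* at 0.09 ± 0.10. The keratin list had 1 measured gene, *KRT15*, a keratin of basal epidermis and hair follicles, which fell by 5.12 ± 0.11 on the log2 scale (limma adjusted p = 6.28e-05).

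**Figure D4:**
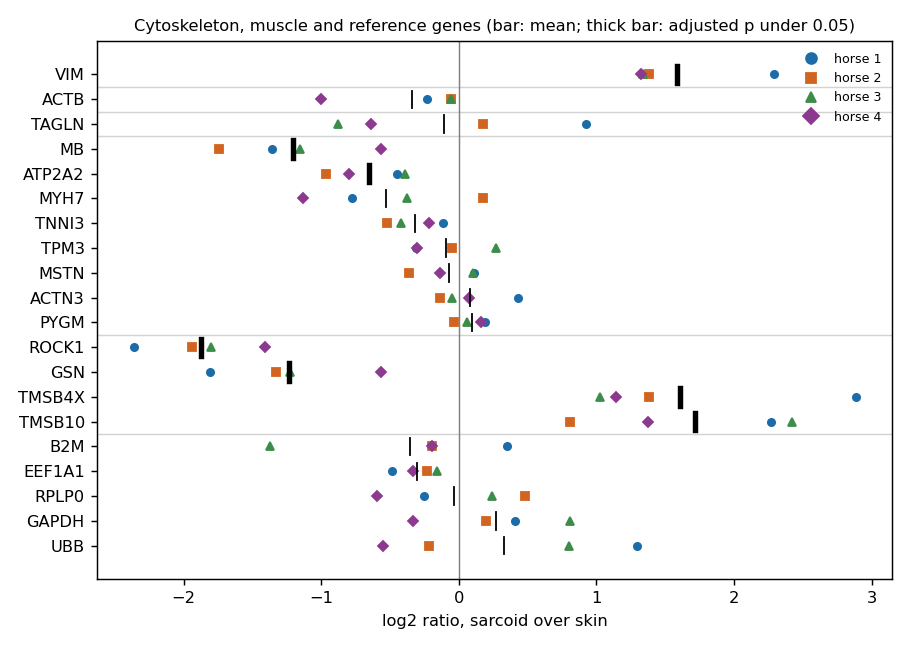
Log2 ratio of sarcoid over skin for the measured genes of 6 lists, separated by grey lines; points are horses, the bar is the mean, and a thick bar marks a limma adjusted p under 0.05. From the top the lists are intermediate filaments, actins, smooth muscle, striated muscle, actin dynamics and reference genes; VIM, TMSB4X and TMSB10 are the 3 genes called higher.

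Several marker lists moved in the same arrays as *VIM*, and their part in its ratio was not tested. Besides the 3 fibroblast markers, *CSF1R*, a receptor of macrophages, rose by 1.24 ± 0.51 (SD, n = 4). All 4 measured leukocyte markers had means above 0, from 0.35 to 1.24, but only *CSF1R* passed and the other 3 did not. Macrophages and endothelial cells also carry vimentin. Of the 5 sweat and sebaceous gland markers 4 were lower, at -6.33 to -2.36, of 4 melanocyte markers 2 were lower, and both erythrocyte genes were lower. Among all targets with a symbol 7.59% were higher and 12% were lower. The melanocyte gene *TYRP1*, called lower, was kept through the skin and was not well above background in any sarcoid. *HBA2* was at -1.33, and *HBB* read -0.76 but was well above background in only 1 sarcoid, against 4 skins.

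Genes with the most similar profile were found as the 3 targets with a symbol, out of 790, whose 4 log2 ratios had the smallest root mean square difference from those of each gene. For *VIM* these were *DCN* (decorin, a matrix proteoglycan), *TMSB4X* and *CSF1R*, at differences of 0.34, 0.35 and 0.35 log2 units. For *ACTB* they were *SEPHS2*, *BPIFA2* and *EIF4G1*, at 0.12, 0.15 and 0.19, all of them lowest in horse 4. For *TAGLN* they were *PYGL*, *RPS4X* and *FILIP1L*, at 0.21, 0.24 and 0.29, with horse 1 highest and horse 3 lowest in each. For *MYH7* they were *GAB1*, *BSG* and *BPIFA2*, at 0.17, 0.28 and 0.30, and for *ACTN3* *FASLG*, *ZNF324* and *NCBP2*, at 0.12, 0.14 and 0.14. With only 4 arrays such likeness is common. Of the 19607 targets, named or not, 85 lay as close to *VIM* as the farthest of its 3 named neighbours, with *VIM* itself counted. The same count, again with the gene itself, was 115 for *ACTB*, 19 for *TAGLN*, 87 for *MYH7* and 145 for *ACTN3*.

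**Figure D5:**
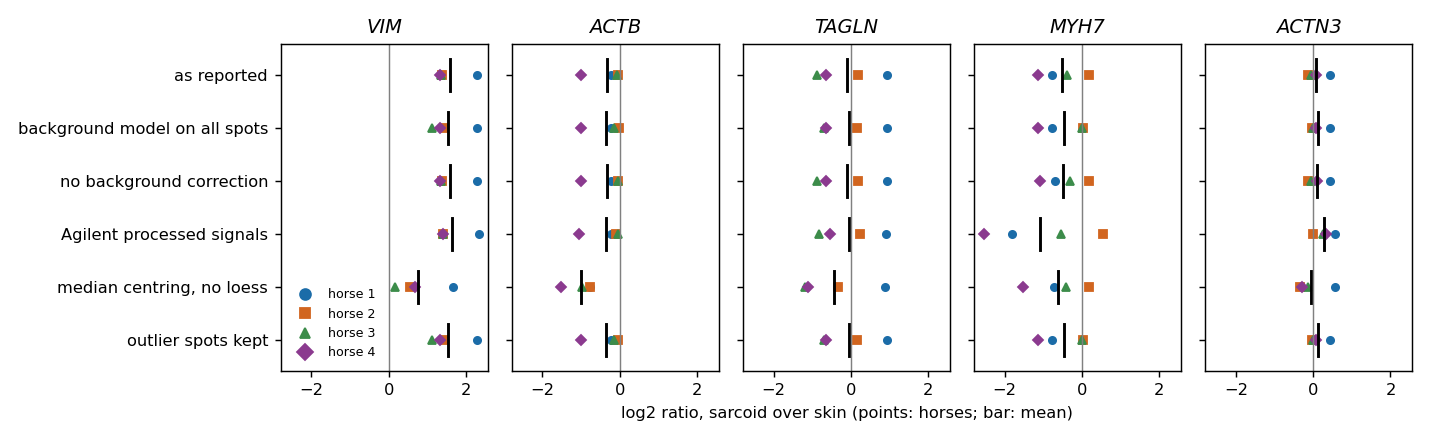
Log2 ratio of the 5 genes under 6 ways of processing the same arrays; points are horses and the bar is the mean. VIM stays above 0 in every horse but falls to a mean of 0.76 on median centring, where ACTB falls to -1.01, and MYH7 spreads out with Agilent's processed signals.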

How the data were processed

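Labelled RNA of 4 sarcoids (Cy3) and of tumour-distant skin of the same horses (Cy5) was read on 4 arrays of 45220 spots, 1417 of them controls. The authors' deposited scanner files give spot and background intensity on a linear scale, and the submitters' processing notes name Feature Extraction 11.5.1.1. Per the file headers, processed intensities have had background subtracted and dyes normalized, and flags take 0 or 1. The deposited value table equals the scanner files' log10 ratio of Cy5 over Cy3, with column medians of 0, -0.00262, -0.0118 and 0.

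Median signals were corrected with normexp (offset 50) after outlier spots had been left out, and normalized by loess with controls at weight 0 (limma 3.58.1, R 4.3.3). Spots of a probe were averaged. A probe was kept if 1 channel was well above background on 3 or more of the 4 arrays, and a target took its brightest probe. The mean log2 ratio was set against 0 in a two-sided test (lmFit, eBayes); each ratio already pairs the tissues of a horse. Channel levels are after loess and Aquantile. Only probes with a RefSeq accession could be given a symbol, and the 31502 with an Ensembl transcript ID were given none. A listed gene not read by name may thus still be on the array. Of 3437 probes with a RefSeq accession 2332 matched the horse RefSeq gene table. That table's build differs from the array's, so coordinates were not used. The fit was tested on simulated data. The limma p-values set the mean against the spread between these 4 horses, moderated by the spread over all targets or probes fitted. The spread between horses includes array error, as each horse has 1 array.

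The genes and lists were chosen, and the leaving out of outlier spots ahead of the background model was settled, with earlier results of these data known. Besides the 5 genes, the text names up to 4 called genes of each list (2 where none passed), 3 most similar targets per gene, and members of small marker lists; *TPM3*, *TNNI3*, *MSTN* and the remaining reference genes were added after their values were seen. The number of arrays limits the precision. Alternatives changed the background model, normalization, outlier spots, filter, probe choice, model and horses.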

Additional observations from a re-analysis of the deposited data

Results flagged for a closer look

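Of 37 sets of 4 values examined, 3 had a value that stood far from the others of its set, where chance alone gives such a value in about 5% of sets. The log2 ratio of *VIM* on its brightest probe was 2.29 in horse 1, against 1.32 to 1.38 in the other three. The skin intensity of *MYH7* in horse 4 was 8.06 on A_69_P005292 and 8.10 on A_69_P005291, against at most 6.94 in the other skins on either probe. These 2 probes read the same RNA and are not separate observations. The other *VIM* probes were not flagged for horse 1, nor was the brightest *MYH7* probe for the skin of horse 4. The sets share genes and arrays, so they are not separate trials for the share given by chance.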

How the results depend on the processing

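Of 15 alternatives, *VIM* kept its direction in all and its call in 12. The call was lost with the background model on all spots (1.54), with outlier spots kept (1.54) and on median centring (0.76). The ratio was 1.35 to 1.67 with a horse left out. Dropping the filter, taking each accession on its own and modelling the channels separately could not change it from 1.58. Processed signals and the value table both gave 1.63. The count of 12 is therefore not a count of separate checks. *ACTB* passed on median centring (-1.01). *MYH7* stayed below 0 and passed in none of them. With a horse left out, *TAGLN* ran from -0.45 to 0.15 (0.074 without horse 4), *ACTN3* from -0.037 to 0.15, *ACTB* minus *TAGLN* from -0.58 to 0.073, *TAGLN* minus *MYH7* from -0.0010 to 0.73, *TAGLN* minus *ACTN3* from -0.41 to 0.030, *MSTN* from -0.13 to 0.024 and *RPLP0* from -0.20 to 0.16 (0.043 without horse 1), each with a turn of sign. On median centring *ACTN3* (-0.052), *TPM3* (0.039), *GAPDH* (-0.41), *UBB* (-0.46) and *ACTB* minus *MYH7* (-0.40) turned. With processed signals from the scanner, or the value table, *MSTN* (0.040) and *RPLP0* (0.069) turned, and *RPLP0* also as the mean over its probes (0.079). The cause of these changes was not tested. Targets called numbered 3087, against 240 with the background model on all spots, 241 with outlier spots kept and 1466 to 2235 with a horse left out. List genes called numbered 8, against 1, 1 and 3 to 6. Of the calls 37.1% were higher in the sarcoids, but 18.7% on median centring, 26.5% without horse 1 and 48.1% with processed signals or the value table. Modelling the channels separately with the horse as a replicate block left each of the 5 genes on its side of the threshold (*VIM* limma adjusted p = 0.000645), as did the fit with no replicate block (0.00195).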
